A study of Rattus norvegicus with 12 samples.

Results

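Lcn2 (lipocalin 2), the calgranulin genes S100a8 and S100a9, and the receptor genes Csf3r, Cxcr2, Cxcr1, Il1r2, Fpr1 and Trem1 form a set of 9 genes that are widely used as neutrophil and acute-phase genes. They were taken by symbol from a rat expression table of 21797 genes, and they were chosen with their levels in these samples known, so their values are a description. The fit over all genes includes them, and where it passed one of them this is a description too, from which nothing is read. Of the 9 genes, 7 passed the filter on low values and 2, Cxcr1 and Fpr1, did not. The tissue came from rats that carried an implant of GelMA, a light-curable gelatin hydrogel (gelatin methacryloyl), or of MFN+GelMA, the same hydrogel with an addition that the labels give only as MFN. Tissue labelled as subcutaneous tissue or muscle was collected at 2 weeks (2W) or 4 weeks (4W), and each material and time had 3 libraries, which makes 4 groups named GelMA or MFN+GelMA with 2W or 4W. All 4 groups therefore carried the hydrogel, and none was without an implant. The strain, sex and age of the rats, and whether the 3 libraries of a group came from separate animals, are not stated in the labels used here, so the p-values below measure only the spread between these samples.

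Neutrophils leave the bone marrow under the control of granulocyte colony-stimulating factor, which acts through the receptor encoded by Csf3r, and they follow CXC chemokines into tissue through CXCR1 and CXCR2 and formylated peptides through FPR1. LCN2 binds bacterial siderophores and so withholds iron from microbes, and S100A8 and S100A9 pair to form calprotectin, which binds metal ions and acts as an alarmin. These secreted proteins are not made by neutrophils alone: macrophages, epithelial cells and adipocytes can express Lcn2 when IL-1, IL-17 or NF-kB signalling is active. IL1R2 is a decoy receptor that binds IL-1 without signalling, and TREM1 amplifies innate responses in neutrophils and monocytes.

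The neutrophil label was checked against 8 defining neutrophil genes outside the set (Mpo, Elane, Camp, Ltf, Ngp, Mmp8, Cd177 and Padi4). None of the 8 passed the filter of 1 FPKM (fragments per kilobase of transcript scaled to the number of mapped fragments, a level per length) in 3 libraries. Of the 8, 6 stayed under 1 FPKM in every library and Cd177 was at 0 in all 12. Their summed level was 0 to 1.53 FPKM in GelMA 2W, 1.85 to 4.45 in MFN+GelMA 2W, 0.856 to 8.99 in GelMA 4W and 0.345 to 0.902 in MFN+GelMA 4W. Mmp8, the neutrophil collagenase, measured 4.19, 0.724 and 2.04 FPKM in MFN+GelMA 2W and at most 0.993 in the other groups. Mpo, myeloperoxidase, reached 8.57 FPKM in GelMA 4W replicate 2. The libraries therefore hold little of these 8 transcripts, and the set is called here by its leading gene, Lcn2. The 8 genes were not measured in neutrophils here, so their low levels cannot show whether neutrophils were present. In bulk tissue, fewer cells of a type and less RNA per cell cannot be told apart.

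The libraries held 11174499 to 13025655 count-like units in all, and 11323 to 11773 genes reached 1 FPKM. In earlier results of these data 3 libraries stood apart. MFN+GelMA 2W replicate 2 carried skeletal muscle transcripts, with a summed level of 6 muscle fibre genes of 860.4 FPKM against 9.81 to 25.6 in the other 11 libraries. GelMA 4W replicate 2 carried fat transcripts, with a summed level of 8 white adipocyte genes of 14020 FPKM. GelMA 2W replicate 3 was known for a low endothelial signal, and its adipocyte sum of 739.6 FPKM was the lowest of the 12. The summed level of 18 macrophage and monocyte genes was 2526 to 3033 FPKM in GelMA 4W and 5740 to 6283 in MFN+GelMA 4W, with 3460 to 4613 and 3538 to 4521 in GelMA 2W and MFN+GelMA 2W. The list itself went both ways: of its 17 tested genes, 7 were higher in MFN+GelMA at 4 weeks and 2 lower (Cd163 and Plac8), with a median log2 difference of 0.39. Over time in MFN+GelMA 6 were higher and 4 lower (Mrc1, Cd163, Plac8 and Vcan), with a median of -0.22. The white adipocyte list also differed from its sum, which was 2641 to 14020 FPKM in GelMA 4W and 6057 to 7384 in MFN+GelMA 4W. Its median log2 difference between materials at 4 weeks was -2.71, with Lpl higher, Cfd lower and the other 6 not past the threshold, and Adipoq, which encodes adiponectin, measured 17.97 to 2118 FPKM in GelMA 4W and 1.68 to 10.35 in MFN+GelMA 4W. These cell-type signals moved with some of the groups, and their part in the results below was not tested.

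The 9 genes lie on 5 chromosomes in the rn6 assembly used by the deposited table. Lcn2 (ENSRNOG00000013973) lies at chr3:11414185-11417546 on the minus strand. S100a8 (ENSRNOG00000011557, chr2:190073814-190074354, plus strand) and S100a9 (ENSRNOG00000011483, chr2:190097553-190100276, minus strand) are neighbours separated by 23.2 kb. Csf3r (ENSRNOG00000008759) lies at chr5:144031401-144051600 on the plus strand, and Fpr1 (ENSRNOG00000011174) at chr1:59765834-59767042 on the plus strand. The other 4 are on chromosome 9: Il1r2 (ENSRNOG00000014378, 46840991-46881264, plus strand), Trem1 (ENSRNOG00000022859, 14727975-14809447, minus strand), Cxcr2 (ENSRNOG00000014269, 81427729-81434102, plus strand) and Cxcr1 (ENSRNOG00000048239, 81466331-81469274, minus strand). Cxcr2 and Cxcr1 are paralogs 32.2 kb apart, and how the authors' counting divided reads between them is not known. The Trem1 locus overlaps 1 unnamed gene model on the plus strand, and no source used here gives the strand setting of the authors' counting.

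Promoters were read from RefSeq for the 3 genes whose MFN+GelMA 2W libraries all stood above the GelMA 2W libraries, to show which transcription factor motifs lie near their starts. RefSeq promoters in the GRCr8 assembly, from 250 bases before to 50 bases after the start of the gene, were at hand for 7 of the 9 genes, S100a8 and Il1r2 being named only. The motifs searched on both strands were GGG, any 5 bases and CC for NF-kB, TTCNNNGAA for STAT, GAGGAAGT for PU.1 and TATAAA for the TATA box. A further motif, TTNCNNNAA, is longer than the C/EBP core and so does not describe C/EBP sites. It is named by its letters only, and C/EBP sites were not searched. Each promoter is written 5′ to 3′ along the strand of its gene, and capitals mark the bases that any of these motifs covers.
Lcn2 chr3:36081731-36082030, minus strand: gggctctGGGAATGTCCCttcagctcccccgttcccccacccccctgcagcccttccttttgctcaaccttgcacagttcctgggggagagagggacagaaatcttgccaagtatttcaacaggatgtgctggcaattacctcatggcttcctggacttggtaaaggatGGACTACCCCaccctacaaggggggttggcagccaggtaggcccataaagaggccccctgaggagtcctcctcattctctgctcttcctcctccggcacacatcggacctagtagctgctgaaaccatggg
S100a9 chr2:178490573-178490872, minus strand: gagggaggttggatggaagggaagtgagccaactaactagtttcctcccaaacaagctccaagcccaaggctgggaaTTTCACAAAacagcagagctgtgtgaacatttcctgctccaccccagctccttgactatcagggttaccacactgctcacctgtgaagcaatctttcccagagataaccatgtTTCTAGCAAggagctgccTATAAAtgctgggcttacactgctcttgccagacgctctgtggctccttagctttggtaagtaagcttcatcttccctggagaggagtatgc
Csf3r chr5:143582970-143583269, plus strand: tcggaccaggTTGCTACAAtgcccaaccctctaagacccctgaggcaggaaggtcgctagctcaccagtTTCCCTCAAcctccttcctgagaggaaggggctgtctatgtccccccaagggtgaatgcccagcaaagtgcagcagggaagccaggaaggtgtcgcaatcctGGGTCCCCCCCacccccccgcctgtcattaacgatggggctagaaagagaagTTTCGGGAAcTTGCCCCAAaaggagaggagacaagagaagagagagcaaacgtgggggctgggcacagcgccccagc
The Lcn2 promoter held NF-kB matches that begin 243, 242 and 81 bases before the start, the first 2 of which overlap on opposite strands. The S100a9 promoter held TTNCNNNAA matches 173 and 60 bases before the start and a TATA match 42 bases before it. The Csf3r promoter held TTNCNNNAA matches 240, 181, 27 and 17 bases before the start and overlapping NF-kB matches 79 and 78 bases before it. These short motifs are common. Of 33469 rat promoters of the same length, 47.3% held the NF-kB motif and 38.2% held TTNCNNNAA. The STAT motif was in 8.87%, the PU.1 motif in 2.42% and the TATA motif in 14.2%. Among the other 4 promoters, Cxcr2 held 1 NF-kB match 39 bases before the start and Cxcr1 1 TTNCNNNAA match 227 bases before it. Trem1 held 1 TATA match 7 bases before the start, and Fpr1 held none. A match is a description of the letters only.

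Lcn2 was the gene of the set with the widest range of levels. In GelMA 2W its level was 20.8, 18.7 and 4.01 FPKM in replicates 1, 2 and 3, and in MFN+GelMA 2W it was 88.6, 66.4 and 411.6 FPKM. The lowest MFN+GelMA 2W library thus stood above the highest GelMA 2W library, and replicate 3 of MFN+GelMA 2W alone was several-fold above its group partners. In GelMA 4W the level was 17.6, 16.3 and 11.2 FPKM, and in MFN+GelMA 4W it was 2.52, 5.71 and 6.79 FPKM. At 4 weeks the order of the groups was therefore the other way round, again with no overlap. At 2 weeks the mean was 14.5 FPKM with GelMA (SD 9.15, n = 3), whereas MFN+GelMA had 189 FPKM (SD 193, n = 3), 13-fold more. At 4 weeks it was 15.05 with GelMA (SD 3.37, n = 3), against 5.005 with MFN+GelMA (SD 2.22, n = 3), a ratio of 3.01 in favour of GelMA.

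On the log2(FPKM + 1) scale of the fit to all genes, which understates the change of low genes, the Lcn2 difference between MFN+GelMA and GelMA was 3.39 (SE 0.68) at 2 weeks and -1.47 (SE 0.68) at 4 weeks. As 4 minus 2 weeks, the Lcn2 difference was -4.58 (SE 0.68) in MFN+GelMA, where the mean at 2 weeks was 37.7 times that at 4 weeks. Without MFN+GelMA 2W replicate 3 this difference was -3.77, and the means stood 15.5 to 1 over time and 5.34 to 1 between materials at 2 weeks. In GelMA it was 0.29 (SE 0.68), and -0.39 without GelMA 2W replicate 3. The difference at 2 weeks was 2.59 when MFN+GelMA 2W replicate 3 was left out and 3.90 when MFN+GelMA 2W replicate 2, the library with muscle transcripts, was left out. By mean FPKM, Lcn2 stood at percentile 61.1 of the tested genes in GelMA 2W, 97.1 in MFN+GelMA 2W, 62.3 in GelMA 4W and 30.8 in MFN+GelMA 4W. Adipoq measured 9.25 to 153.7 FPKM in GelMA 2W and 0.305 to 6.31 in MFN+GelMA 2W, and the median log2 difference of the 8 white adipocyte genes between materials at 2 weeks was -1.63, with 0 past the adjusted threshold and 2 past an unadjusted p of 0.05. The part of fat tissue in the Lcn2 levels was not tested.

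**Figure D1:**
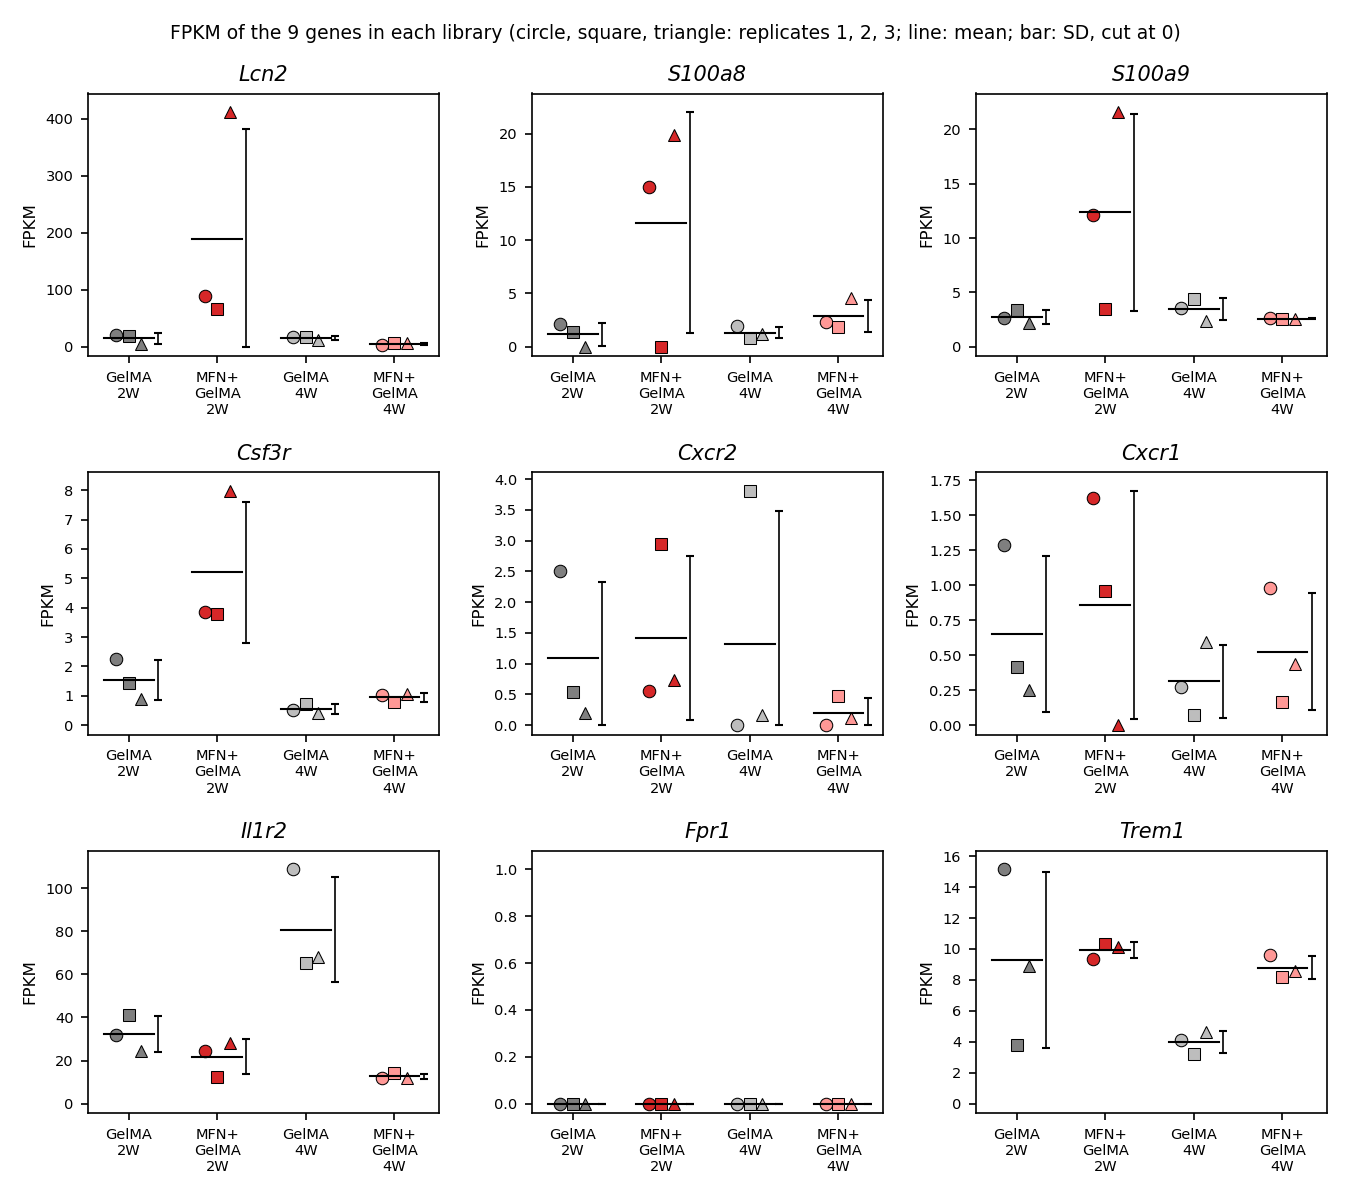
FPKM (linear axis, 1 panel per gene) of the 9 genes in the 12 libraries by group, where a circle, square and triangle are replicates 1, 2 and 3, the line is the mean and the bar the SD of 3 replicates, cut at 0. Lcn2 is between 66.4 and 411.6 FPKM in all 3 MFN+GelMA 2W libraries and at most 20.8 elsewhere, Il1r2 lies between 65.3 and 108.7 FPKM in GelMA 4W and is at most 41.2 elsewhere, and Fpr1 is at 0 throughout.

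The calprotectin genes were low outside the MFN+GelMA 2W group. S100a8 measured 2.11, 1.42 and 0 FPKM in GelMA 2W, 15.0, 0 and 19.9 in MFN+GelMA 2W, 1.91, 0.838 and 1.24 in GelMA 4W, and 2.28, 1.81 and 4.55 in MFN+GelMA 4W. MFN+GelMA 2W replicates 1 and 3 were high while replicate 2 was at 0, so the groups overlapped at 2 weeks. Few fragments stood behind these levels: dividing the count-like values by the step of each library gave 31 and 43 fragments of S100a8 in the 2 high libraries and 0 to 11 in the other 10. The log2 difference between materials was 1.82 (SE 0.92) at 2 weeks and 0.70 (SE 0.92) at 4 weeks, and at 2 weeks it was 3.22 without MFN+GelMA 2W replicate 2 and 1.03 without replicate 3 of that group.

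S100a9, the partner of S100a8, measured 2.63, 3.40 and 2.17 FPKM in GelMA 2W and 12.1, 3.45 and 21.6 in MFN+GelMA 2W. It measured 3.58, 4.36 and 2.36 FPKM in GelMA 4W and 2.60, 2.60 and 2.56 in MFN+GelMA 4W. The MFN+GelMA 2W libraries all lay above the GelMA 2W libraries, but replicate 2 did so only by a margin of hundredths of an FPKM, 3.450 against 3.405. The log2 difference between materials was 1.57 (SE 0.45) at 2 weeks and -0.28 (SE 0.45) at 4 weeks, and that between 4 and 2 weeks was -1.61 (SE 0.45) in MFN+GelMA. Without MFN+GelMA 2W replicate 2 the difference at 2 weeks was 2.22, and without replicate 3 of that group it was 1.05. Within the MFN+GelMA 2W group, replicate 2 was thus the lowest and replicate 3 the highest for Lcn2, S100a8 and S100a9 alike.

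Csf3r, the receptor for granulocyte colony-stimulating factor, had a similar order of groups at 2 weeks at lower levels. It measured 2.25, 1.45 and 0.907 FPKM in GelMA 2W and 3.85, 3.77 and 7.98 in MFN+GelMA 2W. It measured 0.513, 0.738 and 0.414 FPKM in GelMA 4W and 1.03, 0.782 and 1.05 in MFN+GelMA 4W. The MFN+GelMA libraries lay above the GelMA libraries without overlap at both times, and the 4-week libraries below the 2-week libraries in both materials. At 4 weeks the margin between materials was narrow, 0.782 against 0.738 FPKM, on 41 and 42 fragments. The log2 difference between materials was 1.26 (SE 0.27) at 2 weeks and 0.33 (SE 0.27) at 4 weeks, and that between 4 and 2 weeks was -1.60 (SE 0.27) in MFN+GelMA and -0.68 (SE 0.27) in GelMA.

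The chemoattractant receptors of the set were near the detection limit. Cxcr2, a receptor for CXC chemokines that carry the ELR motif, measured 2.51, 0.544 and 0.204 FPKM in GelMA 2W, 0.555, 2.94 and 0.741 in MFN+GelMA 2W, 0, 3.81 and 0.164 in GelMA 4W, and 0, 0.469 and 0.120 in MFN+GelMA 4W. Single libraries carried it in 3 of the groups, and the materials overlapped at both times. Its FPKM did not follow the fragments closely, with 16 fragments behind the 2.51 FPKM of GelMA 2W replicate 1 and 26 behind the 2.94 of MFN+GelMA 2W replicate 2. Its paralog Cxcr1 ranged from 0 to 1.62 FPKM over the 12 libraries, on 0 to 25 fragments, with overlap in every comparison. Fpr1, the formyl peptide receptor, was listed at 0 in all 12 libraries. The log2 difference of Cxcr2 between materials was 0.24 (SE 0.60) at 2 weeks, and it changed sign when MFN+GelMA 2W replicate 2 was left out (-0.18). At 4 weeks it was -0.59 (SE 0.60), and 0.13 without GelMA 4W replicate 2.

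Il1r2 followed another pattern, with its highest levels in GelMA at 4 weeks. It measured 31.8, 41.2 and 24.4 FPKM in GelMA 2W and 24.6, 12.6 and 28.1 in MFN+GelMA 2W, and these groups overlapped. It measured 108.7, 65.3 and 68.0 FPKM in GelMA 4W and 11.93, 14.03 and 11.99 in MFN+GelMA 4W. Every GelMA 4W library stood above every other library, and the means at 4 weeks were 80.7 FPKM (SD 24.3, n = 3) and 12.7 FPKM (SD 1.19, n = 3), a ratio of 6.38. The log2 difference between materials was -0.60 (SE 0.29) at 2 weeks and -2.54 (SE 0.29) at 4 weeks. As 4 minus 2 weeks, Il1r2 differed by 1.28 (SE 0.29) in GelMA and by -0.67 (SE 0.29) in MFN+GelMA. Leaving out 1 library at a time kept the 4-week difference between materials within -2.68 and -2.31.

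Trem1 measured 15.2, 3.81 and 8.87 FPKM in GelMA 2W and 9.35, 10.3 and 10.1 in MFN+GelMA 2W. It measured 4.14, 3.19 and 4.62 FPKM in GelMA 4W and 9.64, 8.20 and 8.56 in MFN+GelMA 4W. The materials overlapped at 2 weeks, where the GelMA libraries were spread widely, and were apart at 4 weeks with MFN+GelMA above. The log2 difference between materials was 0.25 (SE 0.33) at 2 weeks and 0.98 (SE 0.33) at 4 weeks, a ratio of means of 2.21 at 4 weeks. The 2-week value changed sign, to -0.21, without GelMA 2W replicate 2.

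**Figure D2:**
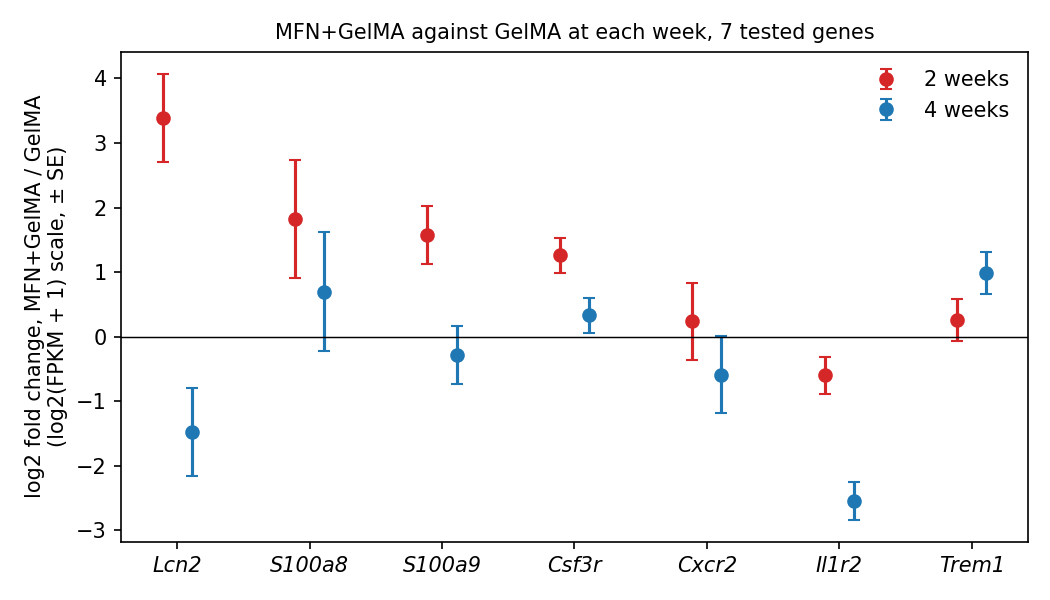
Difference between MFN+GelMA and GelMA (y axis, log2(FPKM + 1) scale, points with SE bars from the limma fit to all tested genes) for the 7 tested genes, at 2 weeks in red and at 4 weeks in blue. Lcn2 lies at 3.39 and -1.47, Il1r2 at -0.60 and -2.54, and Trem1 at 0.25 and 0.98.

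The counts over the set are descriptions, because the genes were chosen on these groups. At 2 weeks 0 of the 7 tested genes passed an adjusted p of 0.05 between materials in limma with Benjamini-Hochberg adjustment, 3 did at an unadjusted p of 0.05, where 14.2% of all tested genes did so, and of all 12270 tested genes 0.497% passed the adjusted threshold, 0.171% as higher and 0.326% as lower. Lcn2, S100a9 and Csf3r were the 3 genes whose MFN+GelMA libraries all lay above the GelMA libraries at 2 weeks, and none lay below. Of all tested genes 18.2% were apart, 9.7% above and 8.48% below. Without MFN+GelMA 2W replicate 2, the fit passed 4 of the 7 genes at 2 weeks, namely Lcn2, S100a8, S100a9 and Csf3r, and it passed 162 genes in all, against 61 with all 12 libraries. Each of the other 11 fits that left out 1 library passed 0 of the 7.

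At 4 weeks 2 of the 7 passed between materials, Trem1 higher and Il1r2 lower, where 24.6% of all tested genes passed, 15.3% as higher and 9.27% as lower. Csf3r and Trem1 lay above without overlap and Lcn2 and Il1r2 below, and of all tested genes 45.6% were apart, 27% above and 18.6% below. The Trem1 pass was lost in 10 of the 12 fits that left out 1 library. From 2 to 4 weeks in GelMA, 1 of the 7 passed, Il1r2 higher, where 2.23% of all tested genes passed, 0.497% as higher and 1.74% as lower, and this pass was lost in 10 of the 12 such fits. Il1r2 was above and Csf3r below without overlap, and of all tested genes 24.4% were apart, 10.3% above and 14.2% below.

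From 2 to 4 weeks in MFN+GelMA, 3 of the 7 passed, Lcn2, S100a9 and Csf3r, all lower, where 19.3% of all tested genes passed, 11.2% as higher and 8.11% as lower. With Cxcr2, 4 of the genes lay below without overlap, and of all tested genes 37.7% were apart, 20.1% above and 17.6% below. For Cxcr2 the margin was 0.469 against 0.555 FPKM, on 7 against 8 fragments, near the detection limit. The S100a9 pass was lost in 5 of the 12 fits that left out 1 library. For the difference between the material effects at 4 and 2 weeks, 2 of the 7 passed, both lower, with Lcn2 at -4.87 (SE 0.96) and Il1r2 at -1.95 (SE 0.41), where 14.1% of all tested genes passed, 9.1% as higher and 4.98% as lower. The comparisons share groups: the material comparisons and the time comparisons use the same 12 libraries. The median log2 difference of the 7 genes was 1.26 at 2 weeks and -0.28 at 4 weeks between materials, 0.22 over time in GelMA and -0.90 over time in MFN+GelMA. The median over all tested genes was 0.0065, 0.0491, -0.017 and 0.0092 in the same order.

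The pathway around these genes was described with 12 lists of 178 genes outside the set, chosen by role, of which 165 were in the table and 121 were tested. In limma with Benjamini-Hochberg adjustment, 1 of the 121 passed as higher and 0 as lower between materials at 2 weeks, a share of 0.826% against 0.497% of all tested genes. At an unadjusted p of 0.05, 37 of the 121 passed at 2 weeks, 32 of them higher. Of all tested genes, 14.2% did so at 2 weeks, which is the share to set beside each unadjusted count at 2 weeks given for a list below. At 4 weeks 43 were higher and 10 lower in MFN+GelMA, 43.8% of the 121 against 24.6% of all tested genes. From 2 to 4 weeks 25 were higher and 18 lower in MFN+GelMA (35.5%), and 1 was higher and 8 lower in GelMA (7.44%). Of all tested genes 19.3% passed over time in MFN+GelMA and 2.23% in GelMA. These shares, and the 24.6% at 4 weeks, are those to set beside each list count below. The median log2 difference of the 121 genes was 0.21 at 2 weeks and 0.43 at 4 weeks between materials, -0.19 over time in GelMA and -0.06 over time in MFN+GelMA.

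The gene that passed at 2 weeks was Cxcl6, a neutrophil-attracting chemokine that signals through CXCR1 and CXCR2. Cxcl6 measured 0.582, 0.107 and 0.106 FPKM in GelMA 2W and 61.0, 5.07 and 64.1 in MFN+GelMA 2W. Every MFN+GelMA 2W library was above every other library, replicate 2 being again the lowest of its group, and no library outside this group exceeded 0.891 FPKM. The log2 difference was 4.54 (SE 0.70, limma adjusted p = 0.0166) between materials at 2 weeks and -4.18 (SE 0.70, adjusted p = 0.00203) between 4 and 2 weeks in MFN+GelMA. The 2-week pass was lost in 4 of the 12 fits that left out 1 library, each leaving out a 2-week library. The adjusted p was 0.0813 and 0.0528 when GelMA replicate 2 or 3 was dropped, and 0.0728 and 0.0738 when MFN+GelMA replicate 1 or 3 was dropped. It was 0.143 when only the 2-week libraries were fitted.

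Of the 4 tested ligands of CXCR1 and CXCR2, Cxcl6 passed as higher at 2 weeks, none passed at 4 weeks with 0 at an unadjusted p of 0.05 as well, where 37.3% of all tested genes did, and Cxcl1 and Cxcl6 passed as lower over time in MFN+GelMA. Cxcl3 measured 2.52, 1.21 and 0.0864 FPKM in GelMA 2W and 8.21, 0.884 and 18.3 in MFN+GelMA 2W, with an overlap at replicate 2. The Cxcl1 difference over time in MFN+GelMA was -2.07 (SE 0.65, adjusted p = 0.0452). It missed the threshold in 8 of the 12 fits that left out 1 library, of which the highest adjusted p was 0.144, without MFN+GelMA 2W replicate 3, and the others were without GelMA 2W replicates 1 and 2, MFN+GelMA 2W replicate 1, GelMA 4W replicate 1 and each MFN+GelMA 4W replicate.

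Among 10 tested acute-phase genes, which encode plasma proteins that change in inflammation, none passed between materials at 2 weeks and 4 did so at an unadjusted p of 0.05, all higher. Lbp, the lipopolysaccharide-binding protein, measured 57.5, 60.2 and 64.3 FPKM in GelMA 2W and 173.4, 85.3 and 277.3 in MFN+GelMA 2W, with no overlap and a log2 difference of 1.39 (SE 0.37, adjusted p = 0.115). Ptx3, a long pentraxin, measured 1.92, 0.748 and 1.54 FPKM in GelMA 2W and 4.38, 2.16 and 54.97 in MFN+GelMA 2W, so 1 library carried most of the group mean. At 4 weeks Cp and A2m were higher and Crp and Itih3 lower in MFN+GelMA. Crp, C-reactive protein, measured 2.54, 2.39 and 1.72 FPKM in GelMA 4W and 0.173, 0.173 and 0.232 in MFN+GelMA 4W, a log2 difference of -1.42 (SE 0.26, adjusted p = 0.00259). A2m, the protease inhibitor alpha-2-macroglobulin, measured 0.0571, 0.0157 and 0.922 FPKM in GelMA 4W and 28.3, 4.37 and 25.3 in MFN+GelMA 4W, with a log2 difference of 3.66 (SE 0.55, adjusted p = 0.000724). The Cp pass was lost when replicate 1 or 3 of either material at 4 weeks was left out, with an adjusted p of 0.0784 to 0.11. The Itih3 pass was lost without GelMA 4W replicate 1 (adjusted p = 0.0552), GelMA 4W replicate 2 (0.0758) or, among the MFN+GelMA 4W libraries, replicate 1 (0.0623).

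A list of 15 genes of NF-kB, IkB-zeta and C/EBP signalling, which holds transcription factors, cofactors, feedback inhibitors and targets, had 0 passes in limma at 2 weeks and 8 at an unadjusted p of 0.05, all higher in MFN+GelMA. Bcl3, an NF-kB cofactor, measured 9.28, 15.3 and 15.0 FPKM in GelMA 2W and 28.9, 20.9 and 35.5 in MFN+GelMA 2W, without overlap, with a log2 difference of 1.05 (SE 0.23, limma adjusted p = 0.0669). Cebpb, a C/EBP factor, measured 19.9, 16.9 and 16.8 FPKM in GelMA 2W and 32.2, 29.9 and 53.0 in MFN+GelMA 2W, also without overlap, with a difference of 1.02 (SE 0.25, adjusted p = 0.0924). Over time in MFN+GelMA, 4 of the 15 fell (Nfkb1, Nfkb2, Bcl3 and Steap4) and 0 rose, with Bcl3 at -1.58 (SE 0.23, adjusted p = 0.000958). At 4 weeks Tnfaip3, an NF-kB feedback inhibitor, was higher and Steap4, a metalloreductase, was lower in MFN+GelMA. Steap4 measured 56.7, 59.2 and 38.7 FPKM in GelMA 4W and 13.6, 22.1 and 21.2 in MFN+GelMA 4W, a log2 difference of -1.40 (SE 0.29, adjusted p = 0.00461). The Tnfaip3 pass was lost without GelMA 4W replicate 1 (adjusted p = 0.0673) or, among the MFN+GelMA 4W libraries, replicate 1 (0.0566). The Nfkb1 and Nfkb2 passes over time were lost without MFN+GelMA 2W replicate 1 or 3, and also without MFN+GelMA 4W replicate 2 for Nfkb1 and replicate 1 for Nfkb2, with an adjusted p of 0.0504 to 0.0789.

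**Figure D3:**
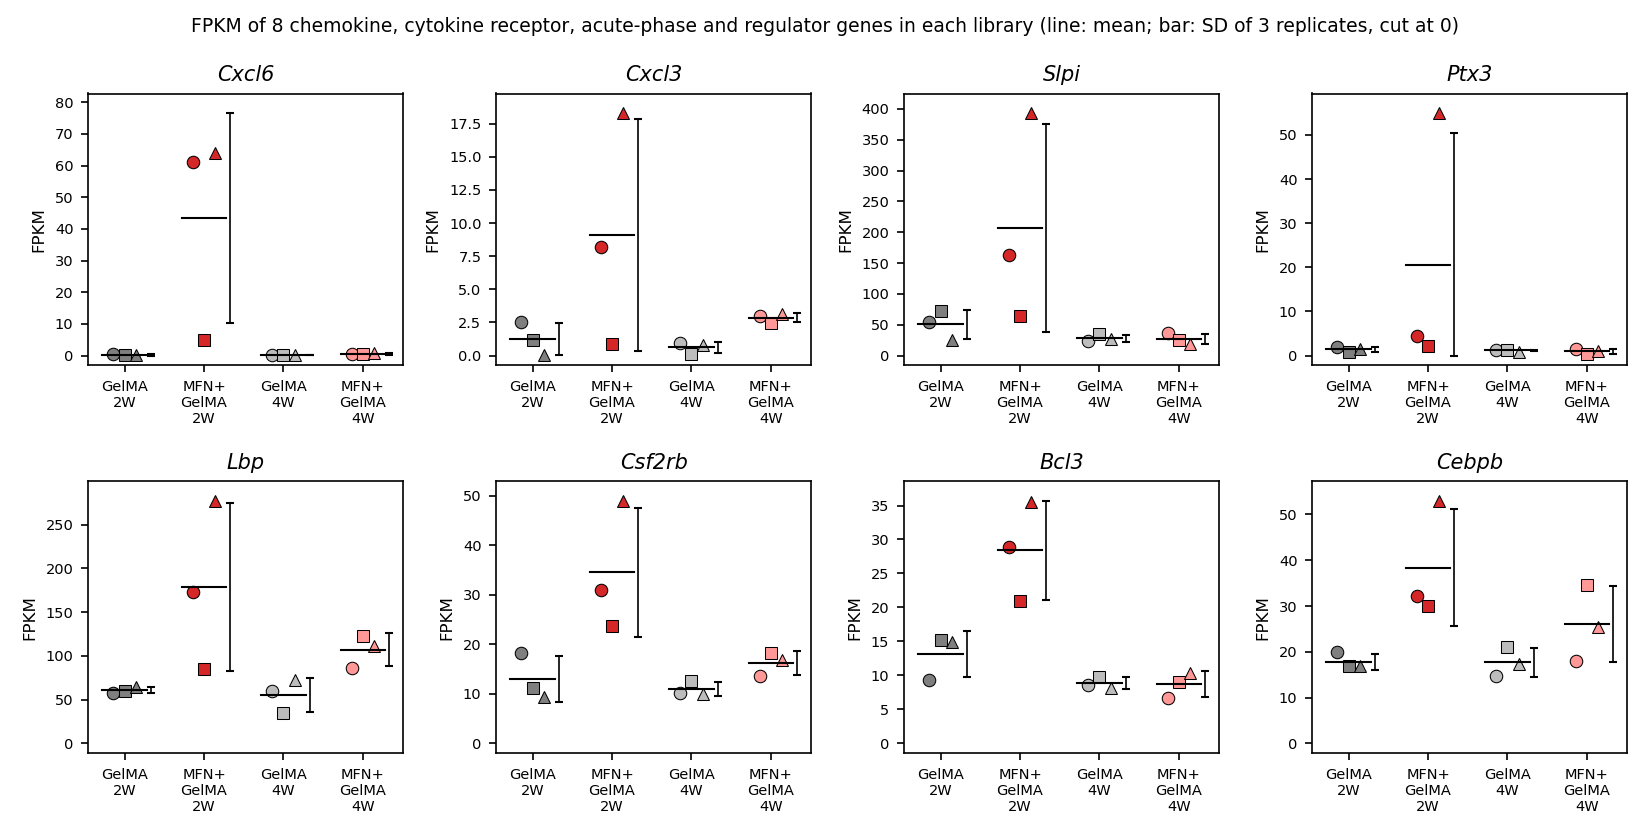
FPKM (linear axis, 1 panel per gene) of Cxcl6, Cxcl3, Slpi, Ptx3, Lbp, Csf2rb, Bcl3 and Cebpb in the 12 libraries, where a circle, square and triangle are replicates 1, 2 and 3, the line is the mean and the bar the SD of 3 replicates, cut at 0. MFN+GelMA 2W replicate 3 is the highest library in each of the 8 panels, and replicate 2 of that group is the lowest of its group in each.

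In the granulopoiesis and IL-17 list, 0 of 9 tested genes passed at 2 weeks and 2 did so at an unadjusted p of 0.05, both higher. Csf2rb, the shared beta chain of the GM-CSF, IL-3 and IL-5 receptors, measured 18.2, 11.3 and 9.46 FPKM in GelMA 2W and 31.1, 23.7 and 49.0 in MFN+GelMA 2W, without overlap (log2 difference 1.33, SE 0.27, limma adjusted p = 0.0574). Over time in MFN+GelMA Csf2rb and Il1b fell. The Csf2rb difference was -0.99 (SE 0.27, adjusted p = 0.024), and it was lost without MFN+GelMA 2W replicate 1 (adjusted p = 0.0515), MFN+GelMA 2W replicate 3 (0.0771), MFN+GelMA 4W replicate 1 (0.0891) or, among the MFN+GelMA 4W libraries, replicate 3 (0.0576). At 4 weeks Csf2ra and Il17ra, receptor chains for GM-CSF and IL-17, were higher and Il17rc was lower. The Csf2ra pass was lost without GelMA 4W replicate 1 (adjusted p = 0.0669), GelMA 4W replicate 2 (0.0507), MFN+GelMA 4W replicate 2 (0.0564) or, among the MFN+GelMA 4W libraries, replicate 3 (0.0644).

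The IL-1 genes were set beside Il1r2, since its product binds the same cytokines. Il1b, which encodes IL-1 beta, measured 26.4, 23.2 and 7.30 FPKM in GelMA 2W, 39.8, 15.7 and 64.9 in MFN+GelMA 2W, 4.06, 12.3 and 3.40 in GelMA 4W, and 4.75, 5.45 and 4.54 in MFN+GelMA 4W. It fell by 2.59 on the log2 scale between 2 and 4 weeks in MFN+GelMA (limma, SE 0.57, with adjusted p = 0.00913). The antagonist gene Il1rn measured 37.3, 29.1 and 68.7 FPKM in GelMA 4W and 440.6, 437.8 and 486.1 in MFN+GelMA 4W, so the groups lay far apart in the direction opposite to Il1r2. Its log2 difference at 4 weeks was 3.40 (SE 0.39, adjusted p = 0.000173), and it rose by 2.54 (SE 0.39, adjusted p = 0.00133) over time in MFN+GelMA. Il1r1, the signalling receptor, measured 22.3, 23.8 and 40.0 FPKM in MFN+GelMA 2W and 10.4 to 16.9 in GelMA 2W, without overlap, with a difference of 0.95 (SE 0.22, adjusted p = 0.0772).

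Of the 16 tested genes of the IL-1 list, 3 were higher at 4 weeks (Il1rn, Il18 and Nlrp3) and 1 was lower (Irak3). Irak3, an inhibitor of the receptor-associated kinases, measured 52.1, 43.2 and 42.4 FPKM in GelMA 4W and 20.8, 22.3 and 22.6 in MFN+GelMA 4W, a log2 difference of -1.03 (SE 0.11, limma adjusted p = 0.000123). Over time in MFN+GelMA, Il1rn rose and Il1b, Il1r1, Il18r1 and Irak3 fell. The Il1r1 and Il18r1 passes were lost without MFN+GelMA 2W replicate 3 or without MFN+GelMA 4W replicate 1 or 3, and that of Il1r1 also without replicate 2 at 4 weeks, with an adjusted p of 0.0524 to 0.102. At 2 weeks 0 of the 16 passed and 5 did so at an unadjusted p of 0.05, all higher.

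**Figure D4:**
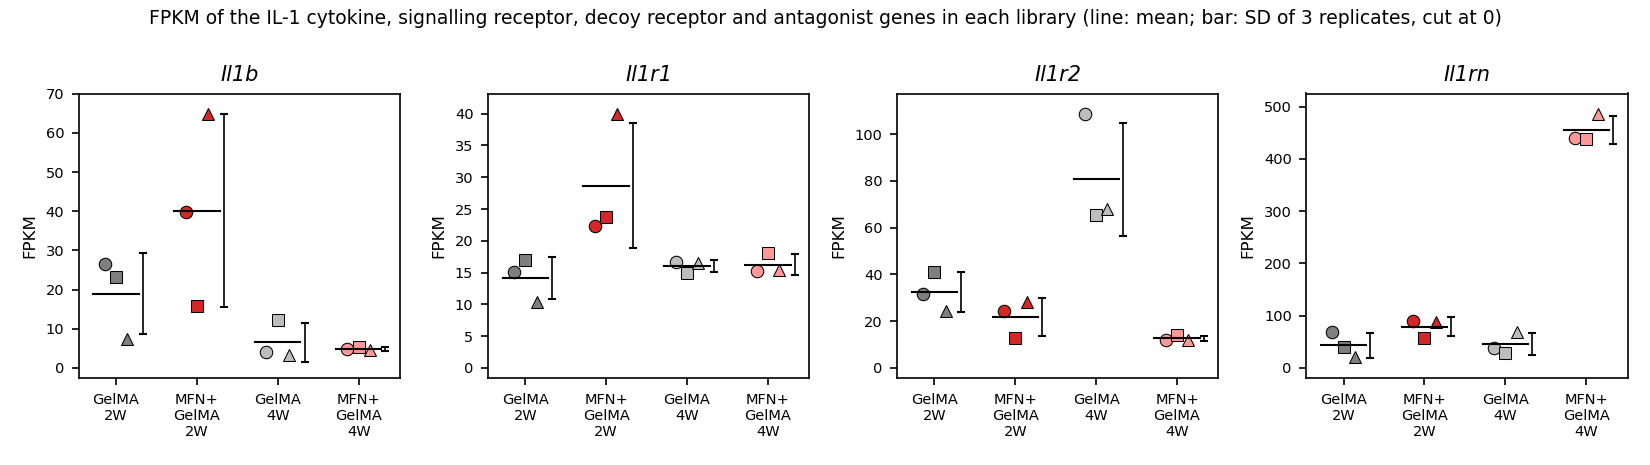
FPKM (linear axis, 1 panel per gene) of the IL-1 beta gene Il1b, the signalling receptor Il1r1, the decoy receptor Il1r2 and the antagonist Il1rn in the 12 libraries, where a circle, square and triangle are replicates 1, 2 and 3, the line is the mean and the bar the SD of 3 replicates, cut at 0. Il1r2 is highest in GelMA 4W (65.3 to 108.7 FPKM) and Il1rn in MFN+GelMA 4W (437.8 to 486.1 FPKM).

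Of the 25 granule protein genes on the list, 22 were in the table and 5 were tested. Slpi, a secreted inhibitor of neutrophil elastase, measured 54.4, 72.5 and 25.3 FPKM in GelMA 2W and 163.2, 64.4 and 393.3 in MFN+GelMA 2W, with an overlap at replicate 2. It fell by 2.58 on the log2 scale over time in MFN+GelMA (limma, SE 0.55, with adjusted p = 0.00807). Anxa3 also fell there, by 1.23 (SE 0.34, adjusted p = 0.026), and this was lost without MFN+GelMA 2W replicate 1 (adjusted p = 0.0636), MFN+GelMA 2W replicate 3 (0.0913), MFN+GelMA 4W replicate 1 (0.0716) or, among the MFN+GelMA 4W libraries, replicate 3 (0.0897). Mmp9, gelatinase B, whose product LCN2 can bind, rose over the same interval by 3.19 (SE 0.60, adjusted p = 0.00402), as did Lyz2, a lysozyme gene also expressed by macrophages. The Lyz2 pass over time was lost on leaving out any of 9 libraries, all 6 MFN+GelMA libraries included, with an adjusted p of up to 0.125. At 4 weeks Mmp9 measured 29.1, 12.8 and 121.1 FPKM in GelMA and 393.4, 676.4 and 482.2 in MFN+GelMA, a log2 difference of 3.77 (SE 0.60, adjusted p = 0.00102). At 2 weeks 0 of the 5 passed and 4 did so at an unadjusted p of 0.05, 3 of them higher. The lower gene was Pglyrp1, at 1.51, 2.14 and 0.827 FPKM in GelMA 2W and 0.725, 0.363 and 0.235 in MFN+GelMA 2W. At 4 weeks Pglyrp1 measured 1.054 to 2.445 FPKM in GelMA and 0.104 to 1.047 in MFN+GelMA, and it did not pass.

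The remaining lists hold genes that neutrophils share with macrophages and others that are not particular to these cells, such as Vcam1 and S100b. Their passes between materials were at 4 weeks, when the macrophage and monocyte sum was 2526 to 3033 FPKM in GelMA and 5740 to 6283 in MFN+GelMA. Of the tested genes behind that sum, 7 were higher and 2 lower. The part of macrophages and monocytes in the passes was not tested. At 2 weeks none of these 6 lists had a pass in limma, and 1 to 3 genes of each did so at an unadjusted p of 0.05. All of these were higher in the NADPH oxidase (2), S100 (1) and adhesion (3) lists. In the TREM1 and alarmin list 1 of 2 was higher, and in the iron list 2 of 3. The chemoattractant and lipid mediator list had 0 of 2 higher. All 6 tested genes of the NADPH oxidase, which makes superoxide in phagocytes, were higher in MFN+GelMA at 4 weeks, with Cybb at 217.0, 190.4 and 360.1 FPKM in GelMA and 1004, 821.4 and 934.6 in MFN+GelMA (log2 difference 1.89, SE 0.19, limma adjusted p = 0.000105). Of 14 tested TREM1 and alarmin receptor genes, 7 were higher and 1, Ager, was lower. Among the 7, the Tlr2 pass was lost in 1 of the 12 fits that left out 1 library. Clec4e, a receptor for glycolipids and dead cells, measured 8.69, 7.04 and 15.7 FPKM in GelMA 4W and 56.3, 51.0 and 49.6 in MFN+GelMA 4W (2.29, SE 0.28, adjusted p = 0.00023). The kinase gene Syk and its adaptor Card9, which act below such receptors, differed by 1.47 (SE 0.15, adjusted p = 8.63e-05) and 1.20 (SE 0.16, adjusted p = 0.000381).

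Of 12 tested adhesion genes, 7 were higher at 4 weeks and 0 lower, among them the integrin genes Itgax (2.94, SE 0.31, limma adjusted p = 0.000122) and Itgb2 (2.14, SE 0.25, adjusted p = 0.00018). Of 12 other chemoattractant receptor and lipid mediator genes, 6 were higher and 0 lower, among them C3ar1, the C3a receptor (1.48, SE 0.16, adjusted p = 0.00012), and the chemokine receptor gene Ccr1 (1.96, SE 0.32, adjusted p = 0.00114). Of 10 other S100 genes, 2 were higher (S100a4 and S100a6) and 3 lower (S100a13, S100a16 and S100b). The S100a4 pass was lost without GelMA 4W replicate 2 (adjusted p = 0.0716) or MFN+GelMA 4W replicate 2 (0.0886) or 3 (0.0858), and the S100b pass without MFN+GelMA 4W replicate 1 (0.0542). Of 10 iron and LCN2 partner genes, 6 were higher and 1, Bdh2, an enzyme of mammalian siderophore synthesis, was lower (-1.48, SE 0.26, adjusted p = 0.00202). Tfrc, the transferrin receptor gene, measured 2.49, 3.68 and 4.56 FPKM in GelMA 4W and 15.7, 16.7 and 12.9 in MFN+GelMA 4W (1.83, SE 0.28, adjusted p = 0.00087). Among the higher genes of the iron list, the Fth1 pass was lost in 7 of the 12 fits that left out 1 library. The Icam1 pass (adhesion list) was lost in 3 such fits and the Ccr2 pass (chemoattractant receptor list) in 1.

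Over time in GelMA, 9 of the 121 pathway genes passed, S100a6 higher and Ncf4, C3ar1, Slc11a1, Il18, C3, Nlrp3, Tlr2 and Hmox1 lower. The C3ar1 difference was -1.33 (SE 0.16, limma adjusted p = 0.00513) and that of Hmox1, the heme oxygenase gene, was -1.26 (adjusted p = 0.00637). These were the 2 passes that no fit leaving out 1 library lost, the other 7 being lost in at least 1. Both were lost when limma was fitted to only the GelMA libraries, each with an adjusted p of 0.0811. C3, the central complement component, measured 52.8, 74.3 and 76.8 FPKM in GelMA 2W and 13.5, 38.0 and 17.6 in GelMA 4W. In MFN+GelMA, the fall in C3 had a log2 value of -2.30 (SE 0.32, adjusted p = 0.000909), with levels of 104.4 to 125.7 FPKM at 2 weeks and 16.6 to 30.7 at 4 weeks.

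Across the 12 libraries, which share the 4 groups, the levels of the set were compared as log2(FPKM + 1), as a description. Lcn2 followed S100a9 (Pearson r = 0.876, Spearman rho = 0.783, n = 12) and Csf3r (r = 0.87, rho = 0.671, n = 12), and S100a8 followed S100a9 (r = 0.808, rho = 0.382, n = 12). Lcn2 and S100a8 were less alike (r = 0.583, rho = 0.294, n = 12), and S100a8 and Cxcr2 had r = -0.226 (rho = -0.211, n = 12). Il1r2 and Trem1 ran in opposite directions (r = -0.701, rho = -0.531, n = 12), and Lcn2 and Il1r2 showed a weak relation (r = 0.124, n = 12). The rank correlation was below Pearson r in each of these first 3 pairs. The 5 tested genes outside the set most like Lcn2 by Pearson r over the 12 libraries were Ccnd3 (0.955), Pdlim1 (0.953), Dennd3 (0.944), Atp8b1 (0.941) and Rcl1 (0.935). Those most like S100a8 were Cxcl3 (0.932), Fbxo22 (0.891), Cxcl13 (0.871), Mad1l1 (0.865) and Fen1 (0.86). Those most like the mean of the standardised tested genes of the set were Rcl1 (0.956), Eif6 (0.935), Gnl3 (0.934), Anxa3 (0.926) and Hif1a (0.925).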

How the data were processed

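RNA was measured by sequencing of rRNA-depleted libraries made with a stranded total RNA kit, per the labels' protocols, in 12 libraries of 4 groups (3 each). The submitters' processing notes name cutadapt 1.9.3, HISAT2, Cuffdiff and the rn6 assembly; no source used here gives the annotation, strand setting or other versions. The deposited table of 22062 rows holds FPKM per gene and library and a count-like signal column per library, per the file headers. The signal values are not whole, since 98.68 to 99.47% of the positive values per library lie within 0.05 of a multiple of the library's step while 204 values lie under 0.5 of a step, so no count model was used and fragments are given only as an approximation.

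Rows sharing a symbol were summed to 21797 genes. The 12270 genes that reached 1 FPKM in 3 or more of the 12 libraries were fitted as log2(FPKM + 1) with limma 3.58.1 in R 4.3.3, with 1 mean per group, an intensity trend and all 12 libraries (8 residual and 3.28 prior degrees of freedom). Tests were two-sided, Benjamini-Hochberg adjusted over all tested genes, with a threshold of 0.05. The fit was run on simulated data with independent normal noise and changes planted only in genes above a set mean level. It was therefore not tested on changes in low genes or on single libraries far above their group. The set and the lists were chosen with earlier results of these data known. The genes named were the members of the set and, in each list, up to 3 genes with the smallest unadjusted p per comparison, besides the defining neutrophil genes, the first markers of each cell type list and the 5 genes most alike to Lcn2, S100a8 and the set's mean; other genes that complete a small count, and a gene described in a comparison other than the one that picked it, were named after their values were seen. Alternatives changed the pseudocount, filter, scaling, trend, weights, libraries, block and threshold.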

Additional observations from a re-analysis of the deposited data

Results flagged for a closer look

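The material effect differed between 4 and 2 weeks for the genes below, each past an adjusted p of 0.05 for the difference itself in limma. Of the 121 tested pathway genes, 23 passed as higher and 9 as lower, 26.4% against 14.1% of all tested genes. In the set, Lcn2 differed by -4.87 and Il1r2 by -1.95 on the log2 scale, values that belong to the choice of the genes and are a description. Outside the set, the chemokine, IL-1 and acute-phase or regulator genes gave log2 values of Cxcl6 (-4.22), Il1rn (2.41), Irak3 (-1.09), Bcl3 (-1.09), Steap4 (-2.24), Crp (-1.45) and A2m (3.24). The oxidase, receptor and signalling genes gave Cybb (1.93), Rac2 (1.49), Hvcn1 (1.24), C3ar1 (2.06), Ccr1 (1.75), Anxa1 (0.73), Clec4e (1.36), Syk (1.76), Card9 (1.21), Trem2 (1.78) and Il17ra (0.62). The adhesion, S100 and iron genes gave Itgax (2.46), Itgb2 (1.83), Cd44 (1.54), S100a16 (-1.53), Bdh2 (-1.46), Slc11a1 (1.41) and Hmox1 (0.85). In the 12 fits that left out 1 library, the pass was lost in 10 for Clec4e, 9 for Bcl3 and 8 each for Il17ra, Sele and Selplg. It was lost in 6 each for Crp and Hmox1, 5 for Hgf and 4 each for Ccr1, Bdh2 and C5ar1. It was lost in 3 for Ager and 1 each for A2m and Trem2. A negative value means that the MFN+GelMA to GelMA difference was lower at 4 weeks than at 2 weeks. The macrophage and monocyte sum was 2526 to 3033 FPKM in GelMA 4W and 5740 to 6283 in MFN+GelMA 4W, with 7 of its 17 tested genes higher and 2 lower, and its part in these values was not tested.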

How the results depend on the processing

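No result changed direction past the threshold. Genes called between materials at 2 weeks numbered 61, and 95 with array weights, 9 with only the libraries compared, 386 without the 3 libraries that stood apart, 111 on the count-like signal (chosen after seeing the data) and 249 at an adjusted p of 0.1; leaving out 1 library gave 22 to 162. Genes of the set called there numbered 0, and 1 with upper-quartile scaling, 1 with quantile normalization, 1 on the count-like signal, 2 at an adjusted p of 0.1 and 3 without the 3 libraries, with 0 to 4 on leaving out 1 library. At 4 weeks 3013 genes were called (2014 to 3315 on leaving out 1 library), and of the set 2, but 1 with no filter, a 0.5 FPKM filter, median-of-ratios, upper-quartile or quantile scaling, no trend or without the 3 libraries (1 to 2 on leaving out 1 library). Over time in GelMA 274 were called, and 837 with array weights, 4 with only the libraries compared and 623 at 0.1 (12 to 290 on leaving out 1 library), and of the set 1, but 0 with no filter, no trend or only the libraries compared and 2 with array weights (0 to 1). Over time in MFN+GelMA 2367 were called (1506 to 2629), and of the set 3, but 5 without the 3 libraries (2 to 5). For the difference between material effects 1727 were called, 2605 at 0.1 (925 to 1612), and of the set 2, but 4 without the 3 libraries (2 to 4). The causes were not tested.

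With the replicate number as a block, 67, 3017, 274, 2300 and 1695 genes were called in the same order, and 0, 2, 0, 3 and 2 of the set. The samples share only a number: 18 same-number pairs had correlations of -0.058 to 0.367, and 5 of 12 libraries correlated best with their own number. Of 138 called values of pathway genes outside the set, 83 passed in every alternative, 55 were lost in at least 1 and 0 changed sign. Of 1728 list counts under alternatives, 1521 stayed within 1.5 times of their main value. edgeR and DESeq2 were not run, because the deposited values are not whole counts, the fit of only the libraries compared has no separate form for the difference between material effects, and Fpr1 could not be fitted. At 0 to 43 fragments, S100a8 is limited by depth.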
